A study of Bos taurus with 170 samples.

Results

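POU5F1, NANOG, SALL4, SALL1 and DPPA4 are 5 transcription and chromatin factors of the pluripotency programme. They were taken by name from the unique molecular identifier (UMI) count table of bovine blastomeres, which holds 10772 genes, and all 5 were in it. The table comes from SCRB-Seq, a plate-based method that reads the 3′ end of mRNA and counts PCR copies of a captured molecule once. Cells were kept where they held 2000 or more UMI on genes, which left 161 of 170 cells. Of these, 43 came from 6 Day 2 embryos (Day2-E1 to Day2-E6, at the 8-cell stage by the labels) and 118 from 8 Day 3 embryos (Day3-E1 to Day3-E8, at the 16-cell stage). All embryos were untreated and came from oocytes of slaughterhouse ovaries that were matured in vitro, fertilised with frozen-thawed sperm and cultured in synthetic oviductal fluid with oestrous cow serum. The study selected them for their cleavage kinetics, so they are not a random sample of embryos in culture. The question put to the data was how much of each factor an embryo held on either day, and whether the factors were found in the same blastomeres.

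POU5F1, also called OCT4, is a POU homeodomain factor that is needed to keep cells pluripotent. NANOG is a homeodomain factor of the epiblast, and in cattle, as in the mouse, it marks the inner cell mass rather than the trophectoderm. SALL4 and SALL1 are spalt-like zinc finger proteins. SALL4 binds POU5F1 and NANOG target genes and recruits the nucleosome remodelling and deacetylase (NuRD) complex, and SALL1 can recruit the same complex. DPPA4 is a chromatin protein that works as a heterodimer with DPPA2 and is known as an activator of genes switched on at embryonic genome activation. In cattle the major wave of this activation falls between the 8- and 16-cell stages, while transcripts inherited from the oocyte are being lost.

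Day 2 cells were deeper than Day 3 cells. The median was 75114 UMI on Day 2 (range 2634 to 357287) and 24017 on Day 3 (range 2078 to 108376), and the sum over an embryo was 438899 to 920192 and 294912 to 600185 UMI, respectively. The embryo was the replicate, and the level of a gene is its UMI per 1000000 UMI of the embryo (CPM). Of the 93 cell barcodes, 77 were used for 2 cells of different embryos. The embryos were split into 2 sets such that embryos of a set share no barcode, with all Day 2 embryos taken to be in the first. The first set then holds Day3-E1, Day3-E2 and every Day 2 embryo, the second Day3-E4 to Day3-E8, and Day3-E3 is not settled. Day3-E1, Day3-E2 and Day3-E8 shared no barcode with a Day 2 cell and were placed through other Day 3 embryos. Day and set can therefore not be fully told apart. Plate 1 held Day 3 embryos only, and plates 2 and 3 held both days. In RefSeq (ARS-UCD2.0) a pseudogene, LOC107133448, overlaps DPPA4, and LOC101906490 overlaps SALL1. Neither has an entry in the table, and UMI from the overlapping stretches could not be assigned apart.

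Of the 5 factors, NANOG and DPPA4 were higher on Day 3, and no difference passed the test for POU5F1, SALL4 and SALL1. Days were compared over all genes in edgeR at a Benjamini-Hochberg adjusted p of 0.05, which called 27.6% of the 7712 genes tested, 18.1% as higher and 9.49% as lower on Day 3. The 2 called factors of 5 therefore stood in a comparison in which a call was common. The split of the calls over all genes was 1396 higher and 732 lower, and without composition scaling it was 1209 and 1063. Over all genes, the median log2 fold change was -0.09, and it was -0.26 without that scaling.

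**Figure D1:**
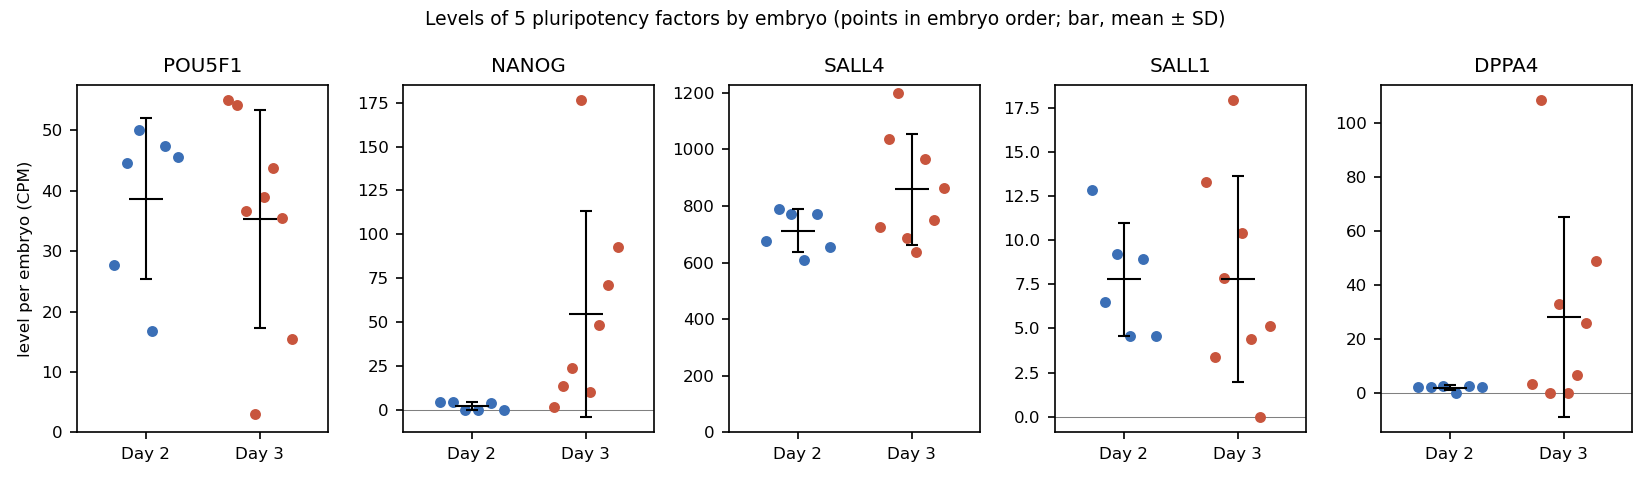
Level of each factor per embryo in CPM (vertical axis, linear, own scale per panel) in the 6 Day 2 (blue) and 8 Day 3 (red) embryos; points follow the embryo number, and bars give the mean with its SD. NANOG and DPPA4 stay below 5 CPM in every Day 2 embryo and spread widely on Day 3. The ranges of the days overlap for each factor, for NANOG through Day3-E1 and for DPPA4 through Day3-E3 and Day3-E5.

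NANOG was close to undetected on Day 2. In the Day 2 embryos it had 4.27, 4.35 and 3.84 CPM in Day2-E1, Day2-E2 and Day2-E5 and no UMI in Day2-E3, Day2-E4 and Day2-E6, where 3 UMI would have been 3.96, 4.57 and 6.84 CPM. On Day 3 the lowest levels were 1.67 CPM in Day3-E1, 10.397 in Day3-E5 and 13.56 in Day3-E2. Day3-E3 with 23.6 and Day3-E6 with 48.2 CPM were intermediate, and Day3-E7 with 71.1, Day3-E8 with 92.7 and Day3-E4 with 176 CPM were highest. All Day 3 embryos except Day3-E1 lay above every Day 2 embryo. The means were 2.08 ± 2.28 CPM (SD, n = 6) and 54.7 ± 58.5 (SD, n = 8), with an exact two-sided permutation p = 0.0213. On the log2 scale the rise was 4.76 with an SE of 0.92, which passed (edgeR, adjusted p = 0.00102). Within plate 2 the means were 1.92 CPM on Day 2 and 81.9 on Day 3 (2 embryos each), and within plate 3 they were 2.16 (4 embryos) and 29.3 (2 embryos). In the first barcode set NANOG had too few UMI for the test, and its only Day 3 values there are the 1.67 and 13.56 CPM of Day3-E1 and Day3-E2. Day 2 counts were small throughout, with 9 UMI in all against 157 on Day 3.

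DPPA4 rose as well, but in some embryos only. The Day 2 embryos had between 2.137 and 2.64 CPM, except for Day2-E4 without a UMI. On Day 3 it had no UMI in Day3-E3 and Day3-E5, where 3 UMI would have been 7.86 and 7.798 CPM, and little in Day3-E1 (3.33 CPM) and Day3-E6 (6.57 CPM). Day3-E7 had 25.9 CPM, Day3-E4 had 32.9, Day3-E8 had 48.9 and Day3-E2 had 109. The values of 6 of the 8 Day 3 embryos exceeded every Day 2 embryo. Of these, Day3-E1 rested on 2 UMI and Day3-E6 on 3, against 1 or 2 UMI in the Day 2 embryos that held any. The means were 1.96 ± 0.98 CPM (SD, n = 6) and 28.3 ± 36.998 (SD, n = 8), and the exact two-sided permutation test of these means gave p = 0.0896. On the log2 scale the rise was 3.85 with an SE of 0.96, which passed (edgeR, adjusted p = 0.00648). This call was lost with plate as a covariate (log2 fold change 2.81, adjusted p = 0.0852 by edgeR), and without Day3-E2 the log2 fold change was 3.19 (adjusted p = 0.0183 by edgeR). In plate 3 the 2 Day 3 embryos had 0 and 6.57 CPM against at most 2.64 in the 4 Day 2 embryos, whereas in plate 2 they had 25.9 and 48.9 against at most 2.56 in 2.

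POU5F1 was present in every embryo of both days, and its means did not differ beyond the spread between embryos. The Day 2 embryos ranged from 16.74 CPM in Day2-E4 to 50.1 in Day2-E3, with a median of 45.1. On Day 3, Day3-E1 (55.0 CPM) and Day3-E2 (54.3 CPM) were highest. Day3-E6, Day3-E5, Day3-E3 and Day3-E7 had 43.8, 39.0, 36.7 and 35.6 CPM, and Day3-E8 and Day3-E4 had 15.45 and 2.99 CPM. Day3-E4 held a single POU5F1 UMI in 13 cells, so that its value lies under the 8.97 CPM of 3 UMI, and it and Day3-E8 lay below all Day 2 embryos. The means were 38.7 ± 13.33 CPM (SD, n = 6) and 35.3 ± 18.02 (SD, n = 8; exact two-sided permutation p = 0.712). On the log2 scale Day 3 differed from Day 2 by 0.03 with an SE of 0.36 (edgeR, adjusted p = 0.961).

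SALL4 had the most UMI of the 5 factors, 5603 in all. The Day 2 embryos ranged from 609 CPM in Day2-E4 to 790.1 in Day2-E2, with a median of 724. The Day 3 embryos ranged from 637 CPM in Day3-E5 to 1199 in Day3-E3, with a median of 806, and 4 of 8 exceeded the whole Day 2 range. The means were 713 ± 75.1 CPM (SD, n = 6) and 858 ± 195 (SD, n = 8; exact two-sided permutation p = 0.114). The log2 fold change of 0.46 (SE 0.18) missed the threshold (edgeR, adjusted p = 0.0625). With RLE scaling it was 0.54 and passed (adjusted p = 0.0373 by edgeR), as it did by DESeq2 (0.53, adjusted p = 0.00975) and without Day3-E1 (0.51, adjusted p = 0.0336) or Day3-E5 (0.58, adjusted p = 0.0200, both by edgeR). Without composition scaling it was 0.27 (adjusted p = 0.283), with plate as a covariate 0.39 (adjusted p = 0.206) and in the first barcode set 0.48 (adjusted p = 0.170, all by edgeR), none of which passed.

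SALL1 was sparse on both days, with 31 UMI in the Day 2 and 26 in the Day 3 cells. It ranged from 4.56 to 12.8 CPM in the Day 2 embryos with a median of 7.74, and from no UMI in Day3-E7, where 3 UMI would have been 9.70 CPM, to 17.9 CPM in Day3-E4 with a median of 6.502. The means were 7.78 ± 3.201 CPM (SD, n = 6) and 7.805 ± 5.84 (SD, n = 8; exact two-sided permutation p = 0.994). On the log2 scale Day 3 differed from Day 2 by 0.23 with an SE of 0.49 (edgeR, adjusted p = 0.757).

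The share of cells with a UMI depends on depth, and Day 2 cells were deeper. Shares were therefore also computed for a depth of 10000 UMI per cell, as the probability that thinning to this depth keeps a UMI of the gene. This used the 37 Day 2 and 103 Day 3 cells with at least that many UMI and left out 6 and 15 cells. The p-values of the shares come from exact two-sided permutation tests over embryos and were not adjusted over the 5 genes.

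For SALL1 the share per embryo was 40.7% ± 19.1 on Day 2 and 16.09% ± 9.39 on Day 3 (SD; exact permutation p = 0.00500). At 10000 UMI per cell, the shares were 6.55% ± 3.35 and 5.90% ± 4.22 (SD; exact permutation p = 0.758), which differ by less than the spread between embryos. For POU5F1 the shares were 73.2% ± 24.1 and 50.7% ± 26.2 as counted (exact permutation p = 0.124) and 31.3% ± 12.9 and 29.1% ± 13.66 at 10000 UMI (exact permutation p = 0.769). The difference in the POU5F1 share as counted passed without Day2-E1 (-30.4 percentage points, exact permutation p = 0.0396) or Day3-E1 (-29.5, exact permutation p = 0.0274), and it was 1.82 in the first barcode set (exact permutation p = 0.964).

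NANOG went the other way. Its share rose from 17.4% ± 19.1 to 44.2% ± 30.3 as counted (exact permutation p = 0.0892, above the threshold), and at 10000 UMI per cell from 1.83% ± 2.08 to 30.1% ± 26.6 (exact permutation p = 0.0167). In the first barcode set, with Day3-E1 and Day3-E2 as its Day 3 embryos, the difference in the share as counted was of the other sign, -3.08 percentage points (exact permutation p = 0.679). That difference is at unequal depth. At 10000 UMI per cell Day3-E1 had 1.67% and Day3-E2 9.46%, against 0 to 4.45% in the Day 2 embryos. As counted, NANOG was found in 84.6% of the cells of Day3-E4 and in 80.0% of those of Day3-E8, but in 1 of 14 cells of Day3-E1. DPPA4 had a UMI in 15.8% ± 8.71 and 22.8% ± 20.5 of the cells (exact permutation p = 0.435), and at 10000 UMI in 1.69% ± 0.90 and 15.602% ± 16.73 (exact permutation p = 0.0596). SALL4 had a UMI in nearly every cell, with a pooled share of 95.3% on Day 2 (41 of 43 cells; 84.5% to 98.7% by the 95% Wilson interval) and of 97.5% on Day 3 (115 of 118; 92.8% to 99.1%). Wilson intervals and the limits of 3 UMI cover counting error only.

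**Figure D2:**
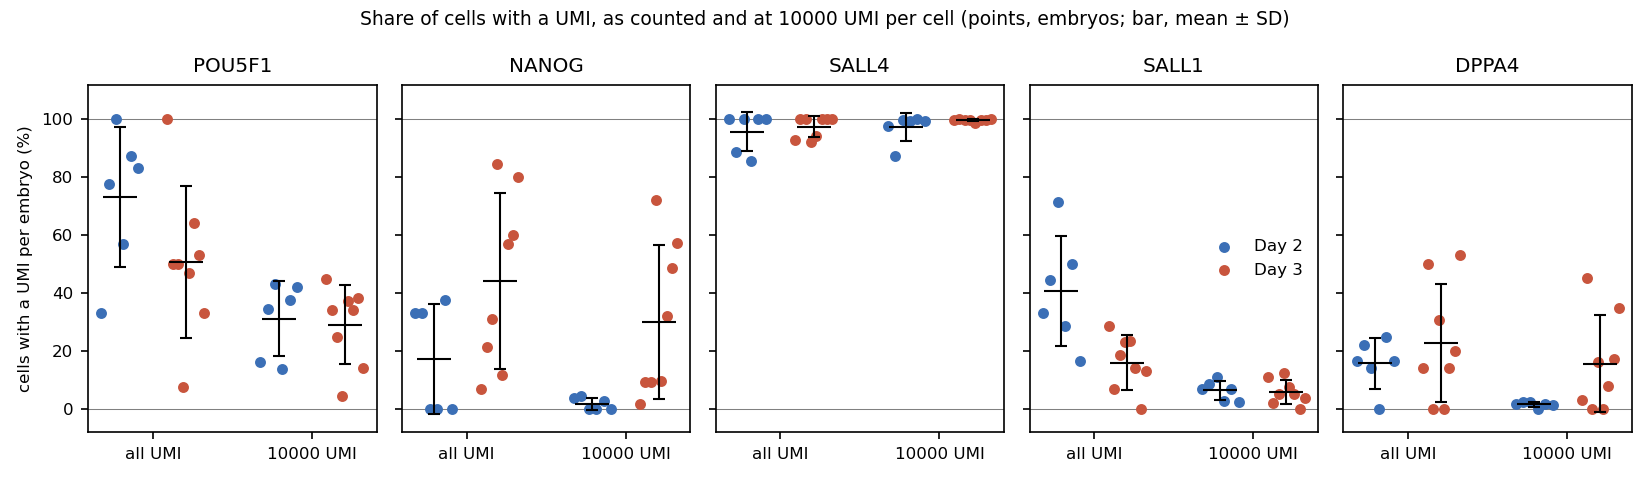
Share of the cells of each embryo with a UMI of the gene in percent (vertical axis), as counted (left group in each panel) and for a depth of 10000 UMI per cell (right group), in Day 2 (blue) and Day 3 (red) embryos; bars give the mean with its SD. The gap between the days in SALL1 and POU5F1 closes at equal depth, and that in NANOG remains.

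POU5F1 and NANOG stood in opposite order at the extremes of the Day 3 embryos. Day3-E4 and Day3-E8 had the highest NANOG levels (176 and 92.7 CPM) and the lowest POU5F1 levels (2.99 and 15.45 CPM), and Day3-E1 had the lowest NANOG level (1.67 CPM) and the highest POU5F1 level (55.0 CPM). Between these embryos the order was not strict, and Day3-E6 was above Day3-E3 in both. The Day 2 embryos had little NANOG at any POU5F1 level. Of 15 listed transcripts typical of the oocyte 9 were in the table, none of them at 0 in any embryo. Their sum followed this order at its extremes only. They summed to 4623 to 4796 CPM on Day 2, to 4519 in Day3-E1, 1393 in Day3-E4 and 989 in Day3-E8, and 2299 to 3964 in the other Day 3 embryos. The 2299 CPM were those of Day3-E2, with 54.3 CPM of POU5F1 and 13.56 of NANOG. Day3-E7 and Day3-E6, with more NANOG, had 2499 and 2889 CPM. The part of oocyte transcripts in the level of POU5F1 was not tested. SOX2, the usual partner of POU5F1 and named here for that role, had 12.9 CPM in Day3-E8 and 32.9 in Day3-E4, its lowest values of all embryos, and 102 in Day3-E1.

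**Figure D3:**
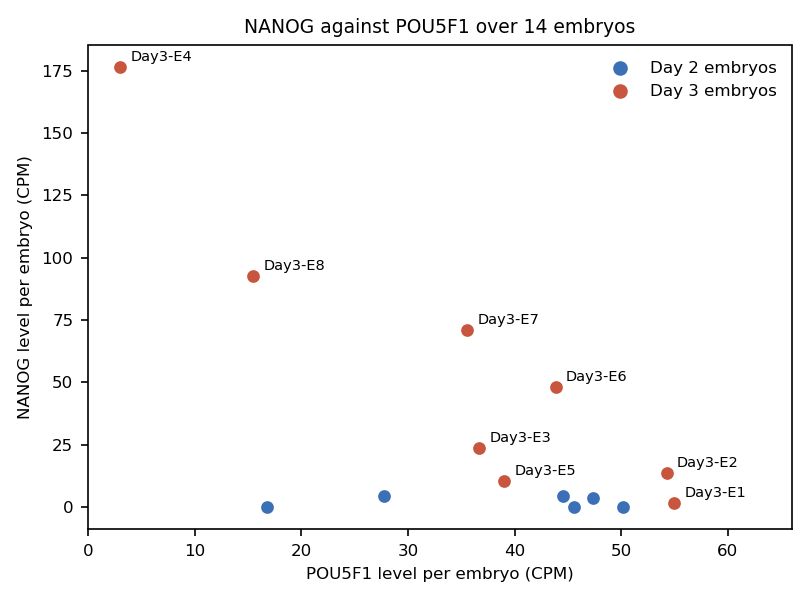
NANOG level (vertical axis, CPM) against POU5F1 level (horizontal axis, CPM) of the 6 Day 2 (blue) and 8 Day 3 (red, named) embryos; each point is an embryo. Day3-E4 and Day3-E8 combine the highest NANOG with the lowest POU5F1 levels of Day 3, and the Day 2 embryos lie along the bottom.

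Within embryos the UMI of the factors were spread unevenly over the blastomeres. In Day3-E4 a cell of 20801 UMI held 15 of the 59 NANOG UMI of the embryo, while 2 of its 13 cells held none. In Day3-E2 a cell of 38163 UMI held 16 of the 32 DPPA4 UMI, or 419 per 1000000 UMI of that cell, and 7 of 14 cells held none. This cell also held 1 UMI each of POU5F1, NANOG and SALL1 and 26 of SALL4. In positive Day 3 cells the median count was 2 UMI for NANOG, DPPA4 and POU5F1 and 23 for SALL4, and 16 of the 19 Day 3 cells with SALL1 held just 1 UMI.

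**Figure D4:**
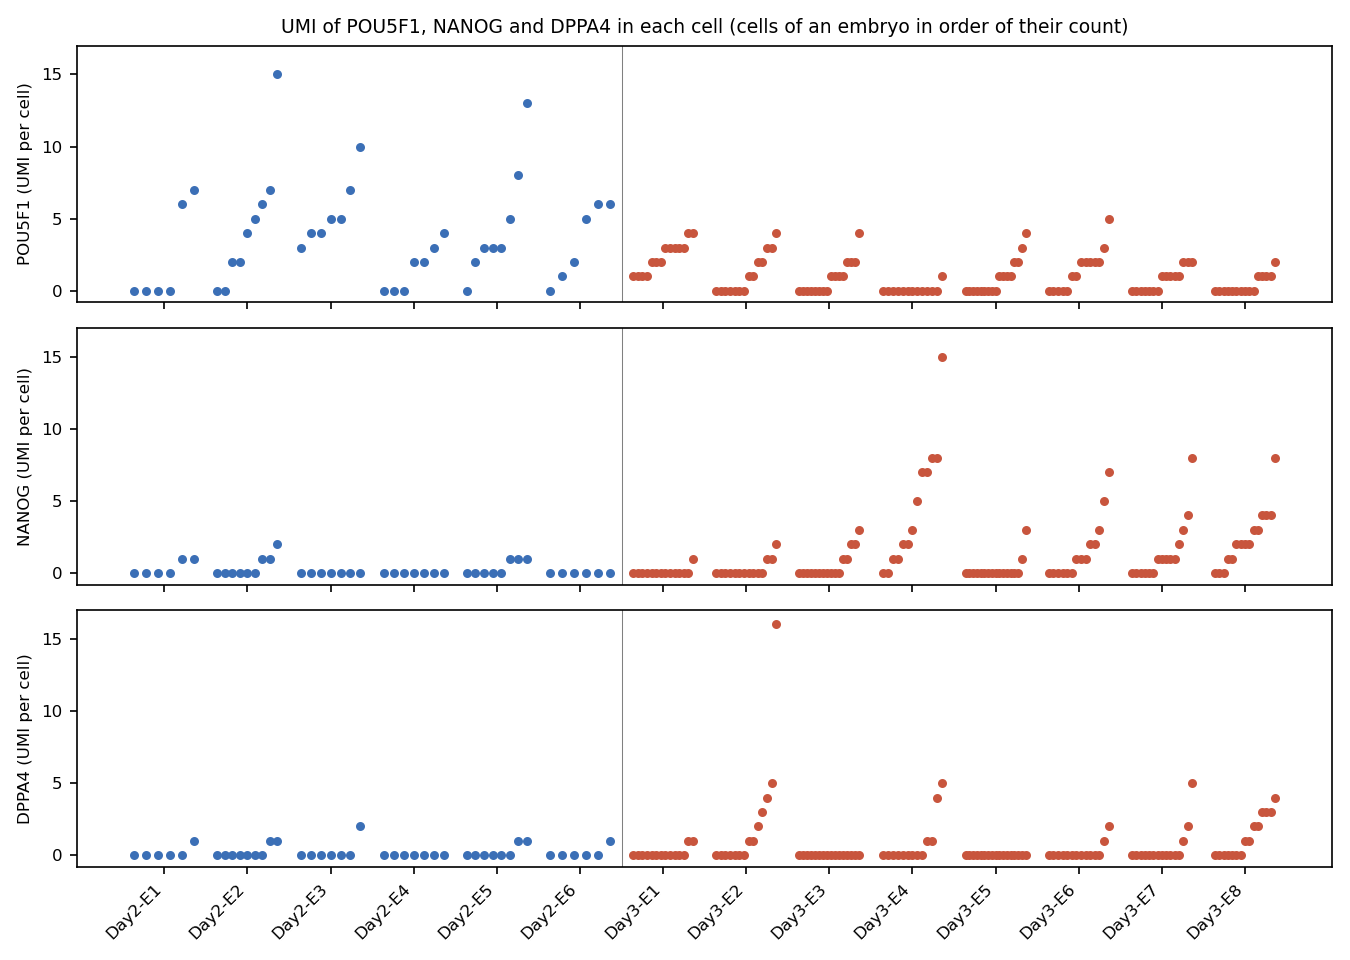
UMI of POU5F1, NANOG and DPPA4 (vertical axes) in each of the 161 cells, grouped by embryo and ordered by count within the embryo; Day 2 in blue and Day 3 in red. NANOG reaches 15 UMI in a cell of Day3-E4 and DPPA4 16 in a cell of Day3-E2, while other cells of these embryos hold none.

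For each embryo, the number of cells with a UMI was compared with that expected if all UMI of the gene in the embryo fell on its cells in proportion to their total UMI. NANOG had a UMI in 59 cells against 67.5 expected (exact sign-flip permutation test over 11 embryos, two-sided, p = 0.0234). On Day 3 it had 51 against 60.4 cells, with 0 embryos above and 7 of 8 below expectation (exact sign-flip p = 0.0156, the lowest that 7 embryos can reach), while on Day 2 it had 8 against 7.149 cells. An embryo with a single UMI of a gene always meets its expectation and adds nothing to the test. This held for Day3-E1 with NANOG and for Day2-E1 and Day2-E6 with DPPA4. DPPA4 had a UMI in 33 cells against 47.4 expected (exact sign-flip p = 0.0313 over 11 embryos), and of the Day 3 cells in 26 against 39.9. Its p was 0.0625 when Day2-E3, Day3-E2, Day3-E4, Day3-E6, Day3-E7 or Day3-E8 was left out (exact sign-flip test). POU5F1 was found in 92 cells against 96.8 (exact sign-flip p = 0.238), SALL4 in 156 against 159.6 (exact sign-flip p = 0.0625) and SALL1 in 37 against 41.4 (exact sign-flip p = 0.168). Without Day3-E1 the p of POU5F1 was 0.0244 (exact sign-flip test).

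Such a shortfall was common in the data. Over the 6020 genes with 100 or more UMI the ratio of observed to expected cells had a median of 0.962 and 5th and 95th percentiles of 0.880 and 1.01, and over the 7712 genes with 30 or more UMI 0.957, 0.858 and 1.02. The ratio was 0.951 for POU5F1, 0.978 for SALL4 and 0.894 for SALL1, all inside these ranges. It was 0.874 for NANOG, just under the 5th percentile of the first set, and 0.697 for DPPA4, below that of either set. Neither set was matched for the number of UMI, so sparse genes such as DPPA4 are set against mostly more abundant ones.

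All 5 factors were found together in 2 Day 2 and 2 Day 3 cells, and none of them in 2 Day 2 cells and 1 Day 3 cell. The most frequent number was 3 factors per cell on Day 2 (14 of 43 cells) and 2 on Day 3 (46 of 118 cells). Of the 51 Day 3 cells with NANOG, 23 (45.1%) also had POU5F1, against 37 of the 67 cells without NANOG (55.2%). Of the 26 Day 3 cells with DPPA4, 18 (69.2%) also had NANOG, against 33 of the 92 cells without DPPA4 (35.9%), and 10 (38.5%) had POU5F1, against 50 of 92 (54.3%). Cells with DPPA4 held a median of 27082 UMI and those without 23646. These shares pool embryos that differed in the level of each gene, so the comparison was made within embryos.

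The expected number of cells with both genes was the sum over cells of the product of the 2 depth probabilities. None of the 10 pairs passed an exact two-sided sign-flip permutation test over embryos after Benjamini-Hochberg adjustment over the pairs (lowest adjusted p = 0.120, and 3 pairs under 0.05 unadjusted). Each pair had fewer shared cells than expected. POU5F1 and NANOG shared 30 cells against 35.9, a ratio of 0.835 (adjusted p = 0.212), and NANOG and SALL4 shared 58 against 67.4 (ratio 0.861, adjusted p = 0.120; both by the exact sign-flip test). With DPPA4 the shared cells were 17 against 27.2 for POU5F1 (ratio 0.624, adjusted p = 0.120), 21 against 28.7 for NANOG (ratio 0.730, adjusted p = 0.195) and 33 against 47.3 for SALL4 (ratio 0.698, adjusted p = 0.120), all by the same exact test. Pairs with SALL1 had ratios between 0.756 (12 against 15.9 cells with NANOG) and 0.895 (37 against 41.3 with SALL4).

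Over all pairs of genes with 100 or more UMI the same ratio had a median of 0.934 with 5th and 95th percentiles of 0.833 and 1.01, and with 30 or more UMI, which takes in SALL1 and DPPA4, 0.928, 0.780 and 1.03. POU5F1 with NANOG, both with SALL4, and SALL1 with POU5F1, SALL4 and DPPA4 lay inside these ranges. The pairs of DPPA4 with POU5F1, NANOG and SALL4 and the pair of NANOG with SALL1 lay below them. These ranges were not matched for the number of cells expected of a pair. With 30 or more UMI, pairs with very few expected cells were left out, which kept 29690272 of 29733616 pairs. SALL4 was in nearly every cell, so its shortfall with DPPA4 restates that DPPA4 was in fewer cells than depth gives. Pairs were therefore also set against an expectation that keeps the number of cells with a UMI of each gene in the embryo and lets depth decide which cells these are. This expectation was chosen after the first one had been examined.

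**Figure D5:**
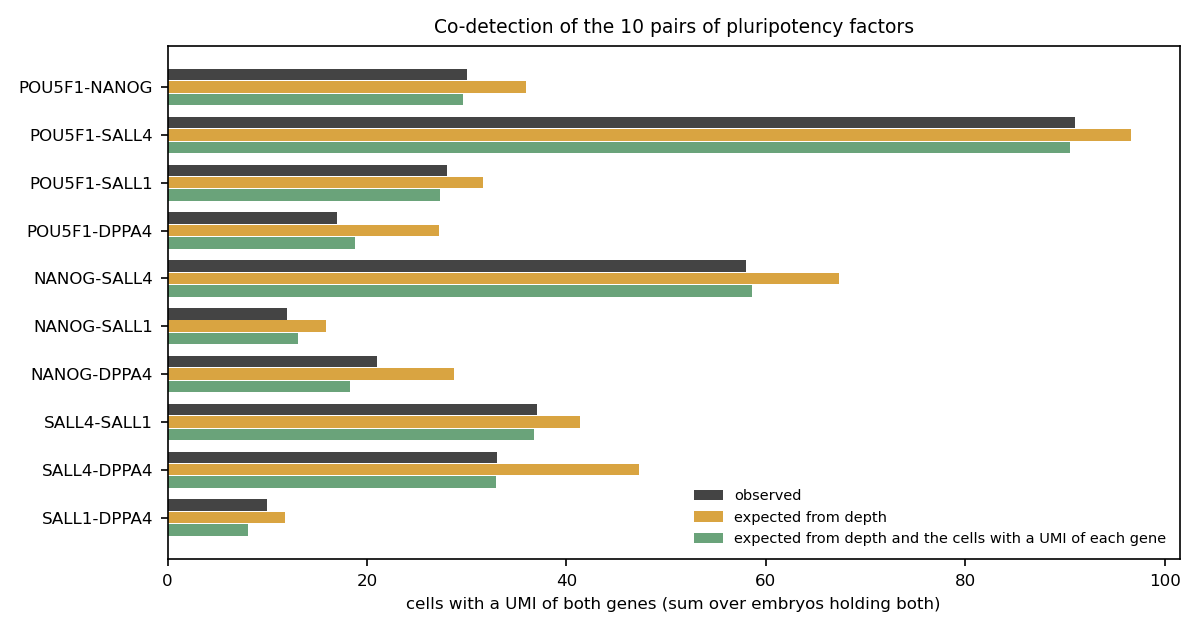
Cells with a UMI of both genes of a pair (horizontal axis, sum over the embryos that held both), observed (dark), expected from depth (yellow) and expected from depth and from the number of cells with a UMI of each gene (green). The observed numbers lie under the first expectation in all 10 pairs and within 3 cells of the second. For pairs with SALL4 the match to the second is nearly fixed in advance.

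Against this second expectation, no pair differed by as much as 3 cells. POU5F1 and NANOG shared 30 cells against 29.7, POU5F1 and SALL4 91 against 90.5, NANOG and SALL4 58 against 58.6, and NANOG and SALL1 12 against 13.06. SALL4 was in nearly every cell, so this expectation all but fixes the shared cells of its pairs, and their match is no result. The adjusted p of the 10 pairs lay between 0.430 and 1 (exact sign-flip test), and 0 pairs had an unadjusted p under 0.05. The largest excess in cells was that of NANOG and DPPA4, with 21 against 18.3 cells, and the largest shortfall that of POU5F1 and DPPA4, with 17 against 18.8. As a ratio the largest excess was that of SALL1 and DPPA4, with 10 against 8.09 cells (1.24). Over pairs of genes with 30 or more UMI, the ratio to this expectation had 5th and 95th percentiles of 0.930 and 1.096. Pairs with very few expected cells were left out of this range, which kept 29653558 of 29733616 pairs. SALL1 with DPPA4 and NANOG with DPPA4 (1.15) lay above that range. POU5F1 with DPPA4 (0.904) and NANOG with SALL1 (0.919) lay below it, and the other 6 pairs lay inside. For the pairs with SALL4 this place was nearly fixed in advance. The range was not matched to the UMI of these genes, and the pairs outside it expected 8.09 to 18.8 cells. It therefore cannot show that those pairs are unusual. On Day 3 alone NANOG and DPPA4 shared 18 cells against 15.8, above expectation in 5 of 6 embryos (exact sign-flip p = 0.0625, where 6 embryos can reach 0.0313), and POU5F1 and DPPA4 10 against 12.4, below it in 4 of 6 (exact sign-flip p = 0.125). By embryo, NANOG and DPPA4 shared 7 cells against 6.79 in Day3-E8, 4 against 3.78 in Day3-E4, 3 against 2.02 in Day3-E7, 2 against 1.67 in Day3-E2, 2 against 1.33 in Day3-E6 and 0 against 0.165 in Day3-E1. At this number of cells neither pair can be told from independent detection.

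Correlation between factors was computed over cells from depth residuals, the UMI minus the number expected from depth divided by its square root, with the expectation taken within each embryo. The cells share embryos, libraries and sparse counts, and no p is given. Pearson's r was -0.01 for POU5F1 with NANOG (Spearman's rho -0.01, 141 cells of 11 embryos), 0.01 for POU5F1 with SALL4 (rho 0.04, 161 cells) and -0.15 for NANOG with SALL4 (rho -0.15, 141 cells). It was -0.21 for POU5F1 with DPPA4 (rho -0.19, 121 cells) and -0.01 for NANOG with DPPA4 (rho 0.12, 108 cells). For SALL1 with DPPA4 it was 0.22 (rho 0.03, 106 cells), and without the cell that held 16 DPPA4 UMI it was 0.12. The other 4 pairs lay between -0.11 and -0.02. Over all pairs of genes with 100 or more UMI, r had a median of -0.002 with 5th and 95th percentiles of -0.144 and 0.157. In single embryos the r of POU5F1 with NANOG ranged from -0.85 to 0.49 and was positive in 7 of 11, and that of POU5F1 with DPPA4 ranged from -0.41 to 0.66 and was positive in 3 of 11. With 30 or more UMI, the percentiles were -0.137 and 0.153. POU5F1 with DPPA4 and SALL1 with DPPA4 lay outside this range, and NANOG with SALL4 just outside that of the first set. When log2(CPM + 1) of the cell minus the embryo mean was used in place of the residuals, r was 0.11 for POU5F1 with NANOG, 0.16 for POU5F1 with SALL4, 0.02 for NANOG with SALL4, -0.11 for POU5F1 with DPPA4, 0.21 for NANOG with DPPA4 and 0.18 for SALL1 with DPPA4. It was 0.04 for POU5F1 with SALL1, 0.003 for NANOG with SALL1, 0.14 for SALL4 with SALL1 and 0.10 for SALL4 with DPPA4. Only POU5F1 with SALL4, POU5F1 with DPPA4 and SALL1 with DPPA4 kept their sign between the measures. The sign of every other pair depended on the measure, and the single embryos differed in sign for every pair. Correlations of this size in such sparse counts are weak.

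Around these factors, a list of 36 other genes of the pluripotency network had 17 in the table and 14 tested. Of these, 5 were higher and 1 was lower on Day 3, where 18.1% and 9.49% of all genes tested were, and their median log2 fold change was -0.01, against -0.09 over all genes tested. KLF4, a Krüppel-like factor of the naive network, had a log2 fold change of 4.22 (edgeR, adjusted p = 9.81e-06), with 90.2 ± 11.42 CPM in Day 2 and 1406 ± 719 in Day 3 embryos (SD). MYC, a driver of growth and proliferation, rose from 0.181 ± 0.444 CPM, a single UMI in 6 embryos, to 36.8 ± 29.7 CPM (adjusted p = 2.77e-05 by edgeR), and KLF5, which acts in both trophectoderm and inner cell mass, from 11.64 ± 6.05 to 128 ± 132 CPM (adjusted p = 0.00115 by edgeR). DPPA2, the partner of DPPA4 and its nearest protein-coding neighbour in RefSeq, rose from 1.44 ± 1.67 to 29.8 ± 22.4 CPM (log2 fold change 4.17, adjusted p = 0.00198 by edgeR). DPPA2 had no UMI in Day3-E1 and Day3-E5 and was highest in Day3-E4 (56.8 CPM), Day3-E8 (51.5 CPM) and Day3-E2 (50.9 CPM), the 3 embryos with most DPPA4. Day3-E6 (32.9 CPM) and Day3-E7 (22.6 CPM) were intermediate, and Day3-E3 had 23.6 CPM of DPPA2 and no UMI of DPPA4. Of the 26 Day 3 cells with DPPA4, 16 (61.5%) had DPPA2, against 22 of 92 without DPPA4 (23.9%). These shares again pool embryos that differed in both genes. Within the 5 Day 3 embryos that held both, they shared 16 cells against 14.55 expected from depth and from the number of cells with a UMI of each gene (exact sign-flip p = 0.438, where 5 embryos cannot go below 0.0625). SOX2 did not pass the test, with 96.3 ± 19.6 and 62.5 ± 34.5 CPM (log2 fold change -0.47, adjusted p = 0.244 by edgeR).

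Of 13 genes of the NuRD complex, through which SALL4 and SALL1 act, 8 were tested, and 1 was higher and 0 were lower on Day 3, with a median log2 fold change of 0.31. A share of 1 in 8 is not above the 18.1% of all genes that were higher. The called gene was MTA2, a metastasis-associated subunit, which rose from 6.66 ± 4.88 CPM in 6 embryos to 51.0 ± 44.4 in 8 (edgeR, adjusted p = 0.00277). The histone-binding subunit RBBP4 (log2 fold change 0.82, adjusted p = 0.0591) and MBD3 (0.68, adjusted p = 0.0640, both by edgeR) missed the threshold, and so did the histone deacetylase HDAC2 (0.32, adjusted p = 0.281 by edgeR).

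Of 29 ligands, receptors and effectors of the LIF, FGF, WNT, activin and BMP pathways, 21 were tested, 5 were higher and 2 were lower on Day 3 (18.1% and 9.49% of all genes), with a median log2 fold change of -0.11. Among the ligands, BMP4 rose from 30.1 ± 6.38 to 187 ± 144 CPM (log2 fold change 2.89, adjusted p = 0.000639 by edgeR). ID1 and ID2, inhibitors of helix-loop-helix factors and targets of BMP signals, rose by log2 fold changes of 4.04 and 3.92 (adjusted p = 0.00235 and 0.00143 by edgeR). Their Day 2 means were low, 0.90 and 4.62 CPM. The far more abundant ID3 did not pass, with 1286 ± 293 and 1231 ± 378 CPM (adjusted p = 0.716 by edgeR). SMAD1, a transducer of BMP signals, fell from 87.5 ± 18.3 to 23.99 ± 15.03 CPM (adjusted p = 0.000658 by edgeR). The more abundant SMAD5 did not pass, with 480 ± 68.8 and 345 ± 137 CPM (adjusted p = 0.262 by edgeR). The listed genes of the BMP pathway thus did not move together.

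Markers of other lineages and cell types are read against the same 18.1% and 9.49% of all genes. Of 13 trophectoderm genes 6 were tested, and 3 were higher and 0 lower on Day 3. The sum of the list was 284 to 416 CPM in the Day 2 and 490 to 1290 CPM in the Day 3 embryos, but TFAP2C alone carried this rise. Without TFAP2C the other 8 genes in the table summed to 309 ± 53.4 CPM on Day 2 and 262 ± 108 on Day 3 (SD). TFAP2C, an AP-2 factor of trophectoderm and germ cells, rose from 25.2 ± 5.31 to 628 ± 348 CPM (adjusted p = 1.48e-05 by edgeR), while EOMES and DAB2 had log2 fold changes of 2.83 and 1.57 (adjusted p = 0.00195 and 0.0200 by edgeR) and CDX2 one of -1.06 (adjusted p = 0.138 by edgeR). Of 8 primitive endoderm genes 3 were tested and 1, PDGFRA, was higher, from 4.57 ± 3.83 to 89.9 ± 40.5 CPM (adjusted p = 4.04e-05 by edgeR). Of the oocyte genes 9 were tested, 0 were higher and 5 were lower, ZAR1 the most by adjusted p (0.00334 by edgeR). Cumulus and granulosa genes, from the cells that surround the oocyte and were removed by vortexing, summed to 519 to 632 CPM on Day 2 and 201 to 574 on Day 3. Most of this sum was HAS2 and STAR, the FSH and LH receptors and CYP19A1 had no entry in the table, and 1 of 7 tested genes was higher (TNFAIP6) and 0 were lower. The part of these other cell types in the levels of the 5 factors was not tested.

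The genes whose level over the 14 embryos was most like that of each factor were found by Pearson's r of log2(CPM + 1) among the 7712 genes tested, as a description. For NANOG they were UQCR10, a subunit of the respiratory chain (r = 0.97), NRBF2, an autophagy protein (0.95), and TSEN54, a subunit of the tRNA splicing endonuclease (0.95), each called as higher on Day 3. For POU5F1 they were the zinc finger genes ZNF621 (0.95), ZNF397 (0.93) and ZNF420 (0.91), which were not called. For DPPA4 they were the ribosomal protein gene RPS3A (0.94), the spliceosome gene SNRNP70 (0.93) and RMND5A (0.93), all 3 called as higher on Day 3. For SALL4 they were AP2B1 (0.85), SMG1 (0.82) and SUCLA2 (0.79), and for SALL1 TFRC (0.87), PPP2R5B (0.85) and SLA2 (0.84). The highest r was thus 0.85 and 0.87 for SALL4 and SALL1, and 0.94 or more for the other 3 factors, with 14 embryos that share the difference between the days.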

How the data were processed

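Single blastomeres of 6 Day 2 and 8 Day 3 embryos were profiled by SCRB-Seq. The authors mapped reads to the bovine genome Btau7 and the ERCC spike-ins with STAR 2.5.2b and counted molecules by the Drop-seq pipeline. Their deposited UMI counts are whole numbers and were used here. The deposited normalised table was not used, since its divisors run out of step with its cells. Cells with fewer than 2000 UMI (9 of 170) and spike-ins were left out. Counts were summed per embryo, genes with 30 or more UMI over the 14 embryos were kept, and days were compared in edgeR 4.0.16 (R 4.3.3; TMM scaling, quasi-likelihood test, Benjamini-Hochberg adjustment, threshold 0.05). The standard error was taken from the log2 fold change and its F statistic. In simulated counts the steps recovered 38.7% of genes changed by 1 and 92.0% of those changed by 2 on the log2 scale, with 7 false calls among 7601 genes. The simulation gave all genes and both days the same dispersion and drew rises and falls alike. Its rates therefore need not hold for genes that spread as widely between embryos as NANOG and DPPA4. Shares, detection and co-detection were tested by exact permutation over embryos (Python 3.11.15, scipy 1.17.1), and depth expectations were computed without random draws. Embryos of 1 day may share parents, which the labels do not give, so p-values measure the spread between these embryos. Alternatives were DESeq2 1.42.0, other scalings, filters, cell thresholds, plate, barcode set, block and leaving out each embryo. The sum without TFAP2C and the expectation for DPPA4 with DPPA2 were added after seeing the data. The genes and lists were chosen with earlier results of these data known. Named list genes are up to 4 per list with the smallest adjusted p, and SOX2, HAS2, SMAD5 and ID3 were named beyond it for role or level.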

Additional observations from a re-analysis of the deposited data

Results flagged for a closer look

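In each day's embryos the highest and lowest level and share of each factor were compared with the others by Dixon's criterion at 95%. Of 30 groups of values 4 held an embryo apart from the rest, where chance gives about 1 in 20. DPPA4 had 109 CPM in Day3-E2, against 48.9 in the next highest Day 3 embryo, and 0 CPM in Day2-E4, against 2.137 to 2.64 in the other Day 2 embryos, which is no UMI against 1 or 2 UMI in each of the others, all under the limit of 3 UMI. The DPPA4 level of Day3-E2 rests on 32 UMI, 16 of them in 1 cell. The share of cells with SALL4 at 10000 UMI per cell was 87.5% in Day2-E2, the lowest of Day 2, and 98.7% in Day3-E5, the lowest of Day 3. The value of Day2-E2 comes from 1 cell of 12649 UMI without a SALL4 UMI.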

How the results depend on the processing

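The count of 2128 called genes became 419 with the first barcode set, 1051 with the replicate block on embryos 1 to 6 and 1386 in those embryos without the block, and 1621 to 2825 when 1 embryo was left out. Embryos with the same number did not deviate together (correlations from -0.09 to 0.03, 0 of 6 closest to their own number), so the numbers do not pair them. Without composition scaling the log2 fold change of SALL4 was 0.27. SALL4 passed the test with RLE scaling (log2 fold change 0.54), DESeq2 (0.53), filterByExpr (0.55) and embryos 1 to 6 without the block (0.54). DPPA4 missed it with plate as a covariate (2.81) and with the replicate block (3.08). With 1 embryo left out the log2 fold changes were 4.22 to 5.14 for NANOG, 3.19 to 4.11 for DPPA4, 0.40 to 0.58 for SALL4, -0.08 to 0.22 for POU5F1 and -0.02 to 0.43 for SALL1. NANOG could not be tested with filterByExpr or in the first barcode set, and DPPA4 and SALL1 not with filterByExpr. The share of cells with POU5F1 differed by -28.4 percentage points in cells with 10000 or more UMI, past the threshold, by -30.4 to -16.3 with 1 embryo left out, and by 1.82 in the first barcode set. The share with NANOG passed at equal depth (28.2 points). In the first barcode set it differed by -3.08 points as counted, at unequal depth. The share with SALL1 did not pass at equal depth (-0.65), nor as counted in the first barcode set (-22.9). NANOG lay 0.28 cells per embryo above the depth expectation on Day 2 alone. DPPA4 lay -0.09 cells per embryo from it on Day 2 and -2.32 on Day 3, neither past the threshold, and -1.46 to -0.95 with 1 embryo left out. For POU5F1 that range was -0.53 to -0.20. None of the 10 pairs passed under any of the 21 alternatives, the leave-one-out fits included. Day 2 alone, with 3 to 6 embryos per pair, was too small for any pair to pass. Day 3 alone, with 5 to 8, was too small for a pair to pass by itself. The causes of these differences were not tested. The sparse counts of SALL1 and DPPA4 limit what their shared cells can show.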
